A study of Mus musculus with 4 samples.

Results

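Complement genes were followed in brown adipose tissue (BAT) as a module of 33 genes that encode complement components, their receptors and their regulators. They were taken by gene symbol from the 55387 gene rows of each library, and all 33 symbols were found, each on 1 row. RNA sequencing was done on BAT of male mice aged 15 weeks, with 1 library from each of 2 control littermates and 2 Sox4-MKO mice. The controls are titled Sox4FF, given the genotype WT in the labels and called Sox4f/f in the methods, which means that both Sox4 alleles are flanked by loxP sites. Sox4-MKO mice carry the same floxed alleles together with Myf5-Cre. Myf5-Cre is active in the precursors that brown adipocytes share with skeletal muscle, so Sox4 is targeted in that lineage. Deletion in single cell types of the tissue, such as macrophages and vessels, was not measured in these libraries. Values are FPKM, fragment counts scaled by transcript length and by the size of the library, which puts genes of different length on 1 scale.

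Complement is a cascade of plasma proteins that tags cells and debris for removal. In the classical pathway the recognition molecule C1q activates the proteases C1r and C1s, which cleave C4 and C2. The lectin pathway reaches the same step through ficolins, collectins and the MASP proteases, whereas the alternative pathway runs on C3 with factor B, factor D and properdin. All routes cleave C3, and the late components then assemble into a membrane pore. The liver makes most circulating complement, but tissue macrophages make C1q and properdin, stromal cells make several early components, and adipocytes are the main source of factor D, also known as adipsin.

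The depth of the 4 libraries was estimated at 12089536 to 16220420 fragments from the lowest values, and BAT identity was visible in Ucp1 at 733 to 1935 FPKM. The label names brown adipocytes as the cell type, yet whole tissue was sampled and markers of other cells were present. Skeletal muscle RNA was higher in both Sox4-MKO libraries, most of all in mouse 1. Summed over 5 muscle genes it was 156 and 585 FPKM in Sox4f/f mice 1 and 2 and 11388 and 1985 FPKM in Sox4-MKO mice 1 and 2. Sox4 itself had 1.98 and 1.06 (Sox4f/f) and 0.98 and 3.06 FPKM (Sox4-MKO), so its mRNA was not lower under that label. Directions below therefore follow the labels. Hepatocyte genes, which would mark liver RNA, were low in all libraries. Summed over 5 genes they had 0.17 and 0.14 FPKM in Sox4f/f mice 1 and 2 and 2.01 and 0.29 FPKM in Sox4-MKO mice 1 and 2. In bulk tissue a change in the number of cells of a type cannot be told apart from a change in RNA per cell.

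Most complement genes had higher levels under the Sox4-MKO label. The FPKM limit of the study, an average above 1 in at least one genotype, was passed by 27 of the 33. limma on log2(FPKM + 1) gave 16 of these 27 a higher level at an unadjusted p under 0.05, where 7.95% of all 12877 tested genes had one. Genes past this unadjusted threshold are referred to as called. None of the 27 was lower at that threshold, against 8.28% of all tested genes. Over all tested genes 1024 were called higher and 1066 lower, a split that became 913 and 1686 with a common median and 1322 and 746 with a common sum, while complement genes stayed at 0 lower in both. The median log2 fold change was 0.72 over the 27 genes and -0.05 over all tested genes. After Benjamini-Hochberg adjustment over all tested genes, 0 of the 27 were under 0.05, as were 0% of all tested genes, and the adjusted p of the 16 genes lay between 0.191 and 0.290 (limma). With 2 mice per genotype, an exact two-sided permutation test of a single gene cannot give a p below 0.333. Both mice labelled Sox4-MKO lay above both Sox4f/f mice at 20 of the 27 genes, against 21.7% of all tested genes, and below them at 1, against 29.6%.

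The count depended on single libraries. Without Sox4f/f mouse 1, 10 of the 27 genes were called higher, while 3.36% of all tested genes were. The calls of C1qc, C3, C5ar1, C3ar1, Cd55 and Itgam were lost. Of their log2 fold changes, that of C1qc went from 0.79 to 0.51, Cd55 from 0.94 to 0.64, Itgam from 0.87 to 0.63, C5ar1 from 0.72 to 0.63 and C3ar1 from 0.79 to 0.76, while that of C3 went up from 0.62 to 0.80. Sox4-MKO mouse 1, the library with the most muscle RNA, was left out in turn. The mouse then kept under that label, mouse 2, still had 1985 FPKM over the 5 muscle genes, against 156 and 585 in Sox4f/f. Here the calls lost were those of C1qb, C1qc, C5ar1, Cd55 and Itgam, whose log2 fold changes were 0.57 to 0.75, with Cfd and Masp1 called in addition. Wherever a library is left out, its genotype has 1 mouse, which limma then takes to vary like the mice of the other genotype and like other genes of that level.

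**Figure D1:**
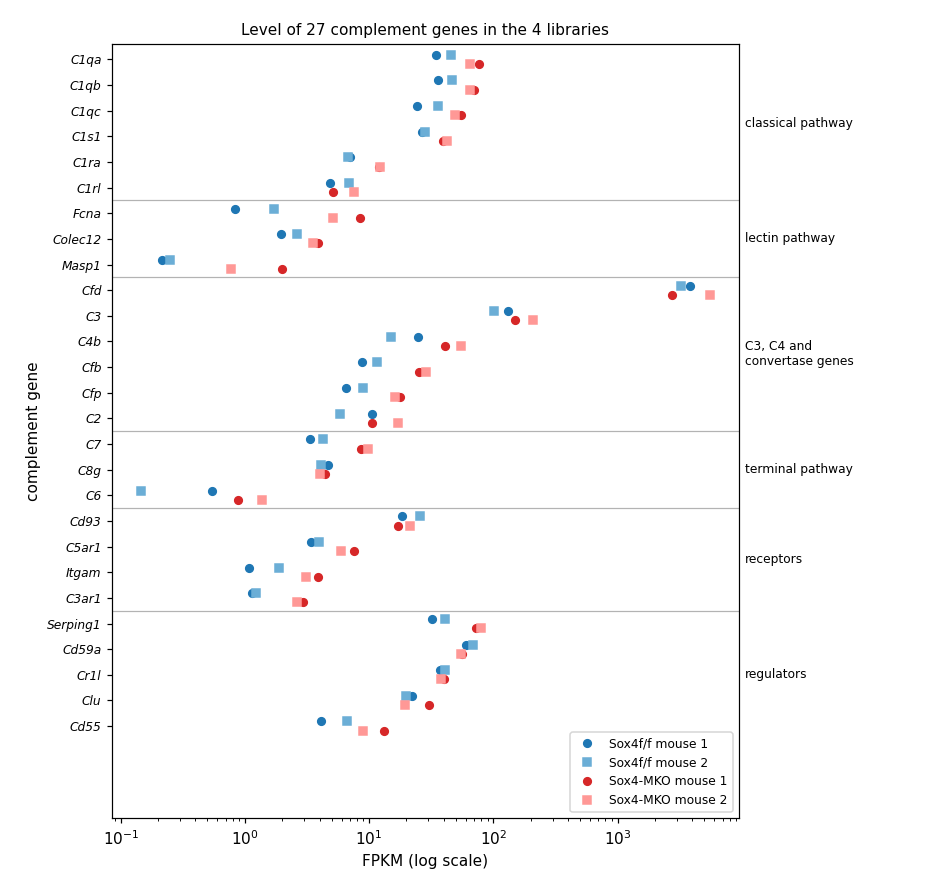
FPKM (log axis) of the 27 complement genes that passed the FPKM limit, ordered by role, with 1 point per library, blue for Sox4f/f and red for Sox4-MKO. Cfd lies above all others at 2725 to 5569 FPKM, and at 20 genes both red points lie to the right of both blue points.

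Within the classical pathway, the 3 chains of C1q were higher together. C1qa, C1qb and C1qc are neighbours on the minus strand of chromosome 4 (GRCm38, 136880129 to 136898803), and each encodes 1 chain of the C1q molecule. C1qa had 34.9 and 45.5 FPKM in Sox4f/f mice 1 and 2 and 77.3 and 64.7 FPKM in Sox4-MKO mice 1 and 2. C1qb had 36.0 and 46.8 against 69.9 and 64.6 FPKM, and C1qc had 24.2 and 36.2 against 54.9 and 49.3 FPKM. All 3 were lowest in Sox4f/f mouse 1 and highest in Sox4-MKO mouse 1, with no overlap between the genotypes. Means were 1.77-fold, 1.62-fold and 1.73-fold higher, and log2 fold changes were 0.81 (standard error, SE, 0.18, limma adjusted p = 0.214), 0.70 (0.17, adjusted p = 0.215) and 0.79 (0.22, adjusted p = 0.236). Behind each of these levels stood an estimated 391 to 1140 fragments. The call of C1qc was lost without Sox4f/f mouse 1, Sox4-MKO mouse 1 or Sox4-MKO mouse 2, and that of C1qb without Sox4-MKO mouse 1. The chains kept similar proportions, with C1qa at 0.97 to 1.11 times and C1qc at 0.67 to 0.79 times the level of C1qb in the 4 libraries.

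The proteases C1r and C1s were higher as well. C1ra, C1rl and C1s1 lie side by side on chromosome 6 from 124493113 to 124542359. C1ra had 6.95 and 6.81 in Sox4f/f against 11.9 and 12.2 FPKM, and C1s1 had 26.7 and 28.0 against 39.5 and 42.2 FPKM. Within a genotype the mice differed by at most 1.07-fold at either gene. Their log2 fold changes were 0.73 (SE 0.14, limma adjusted p = 0.196) and 0.56 (0.12, adjusted p = 0.210), and both kept an unadjusted p under 0.05 in all 14 alternatives tried. The neighbouring C1rl encodes a C1r-like protease and did not follow them, with 4.86 and 6.91 (Sox4f/f) and 5.10 and 7.53 FPKM (Sox4-MKO). Parts of these sequences are shared with copies nearby. Of the 75-base windows in the C1ra transcript 40.1% also occur in C1rb, and 14.7% of those in C1s1 occur in C1s2, so fragments could be assigned to either copy. C1rb was listed at 0 in all libraries and C1s2 at no more than 0.071 FPKM.

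The lectin pathway held the largest log2 fold change of the module. Fcna encodes ficolin A, a recognition molecule made by macrophages. It had 0.84 and 1.71 (Sox4f/f) and 8.41 and 5.08 FPKM (Sox4-MKO), and its mean went from 1.28 ± 0.62 to 6.74 ± 2.36 FPKM (SD, n = 2 mice each). On the log2 scale the fold change was 1.76 (SE 0.33, limma adjusted p = 0.196). These are low levels, from an estimated 15 and 28 fragments in Sox4f/f and 146 and 113 in Sox4-MKO. Masp1 encodes the protease that activates the lectin pathway, and had 0.22 and 0.25 against 1.99 and 0.77 FPKM. Its 2 Sox4-MKO mice differed 2.58-fold, and its log2 fold change of 0.90 (SE 0.35, limma adjusted p = 0.313) had an unadjusted p of 0.053. Leaving out mouse 1 of the Sox4-MKO label gave 0.52 and leaving out mouse 2 gave 1.28, each time with 1 mouse under that label, and Masp1 was called in 8 of the alternatives, these included. Colec12, a scavenger collectin, had 1.95 and 2.65 against 3.88 and 3.54 FPKM, without overlap and with an unadjusted p of 0.056 (limma). Masp2 stayed under the FPKM limit at 0.16 to 0.53 FPKM, and 54.9% of its annotated exonic bases lie opposite exons of Tardbp, a gene with 77.1 to 94.7 FPKM.

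C3 and the genes of the convertases, the enzymes that cleave it, differed in how firmly they were higher. Cfb encodes factor B, the catalytic part of the alternative pathway convertase. It had 8.76 and 11.5 (Sox4f/f) and 25.3 and 28.8 FPKM (Sox4-MKO), which is 2.67-fold by means. Its log2 fold change of 1.34 (SE 0.18, limma adjusted p = 0.191) had the lowest unadjusted p of the module and lay between 1.17 and 1.52 over all alternatives. Cfp, which encodes properdin, the stabiliser of that convertase, had 6.53 and 8.93 against 17.6 and 16.2 FPKM. Its log2 fold change was 1.05 (SE 0.19, limma adjusted p = 0.196). For both genes the genotypes stood well apart, and the call was kept in all 14 alternatives.

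C4b and C3 were more variable. C4b encodes complement C4 and had 24.8 and 15.0 in Sox4f/f against 40.8 and 54.5 FPKM, with a log2 fold change of 1.24 (SE 0.29, limma adjusted p = 0.214). It was no longer called without Sox4-MKO mouse 2 (log2 fold change 1.04). C3, the central component, was the second most abundant member, with 130 and 102 against 150 and 210 FPKM. Its mean went from 116 ± 20.0 to 180 ± 42.3 FPKM (SD, n = 2 mice each), a log2 fold change of 0.62 (SE 0.22, limma adjusted p = 0.290). This call was lost in 7 of 14 alternatives. Among them were leaving out Sox4f/f mouse 1, Sox4f/f mouse 2 or Sox4-MKO mouse 2 (log2 fold change 0.38 without the last), a common median and the replicate block, where the unadjusted p was 0.074 by limma. C2, whose product joins C4 in the classical convertase, had 10.5 and 5.86 against 10.6 and 17.2 FPKM. Sox4f/f mouse 1 and Sox4-MKO mouse 1 were thus nearly equal, and the unadjusted p was 0.106.

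C2 and Cfb lie only 85 bases apart on chromosome 17 and are close relatives, from 34856374 to 34898265, with C4b and C4a in the same stretch of the major histocompatibility complex. A readthrough gene annotated across both, Gm20547, covers 79.5% of the exonic bases of Cfb and 42.8% of those of C2, and was listed at 0 in every library. C4a, a close copy of C4b, was under the FPKM limit with 0.27, 0.45, 0.34 and 1.41 FPKM in the same order of libraries. Of the 75-base windows in C4b, 23.5% also occur in C4a, so its values are uncertain.

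Cfd, which encodes factor D, was by far the most abundant member and did not separate the genotypes. It lies on chromosome 10 from 79890853 to 79892655 and ranked between 6 and 11 among all genes of a library. It had 3847 and 3252 (Sox4f/f) and 2725 and 5569 FPKM (Sox4-MKO), so that the lowest and the highest level were both found under the Sox4-MKO label. The means of 3549 ± 421 and 4147 ± 2011 FPKM (SD, n = 2 mice each) gave a log2 fold change of 0.14 (SE 0.37, limma adjusted p = 0.872). With mouse 1 of the Sox4-MKO label left out it became 0.65, and with mouse 2 left out -0.38, each time with 1 mouse under that label, so its direction depends on which mouse is kept. The 4 libraries had the same order in Adipoq, the adiponectin gene of adipocytes, with 989 and 821 against 711 and 1123 FPKM. Other markers of adipocytes in general did not have that order. Plin1 had 726 and 851 against 708 and 710 FPKM, and Pparg had 197 and 155 against 127 and 153 FPKM. Fabp4 had 5801 and 6334 against 5416 and 7518 FPKM, and Lep had 11.8 and 21.5 against 47.4 and 38.3 FPKM. The level of Cfd was 3.89, 3.96, 3.83 and 4.96 times that of Adipoq. Cfd alone made up 77.8 to 88.4% of the summed FPKM of all 33 genes. Without it, the sum was 507 and 538 (Sox4f/f) and 777 and 829 FPKM (Sox4-MKO).

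**Figure D2:**
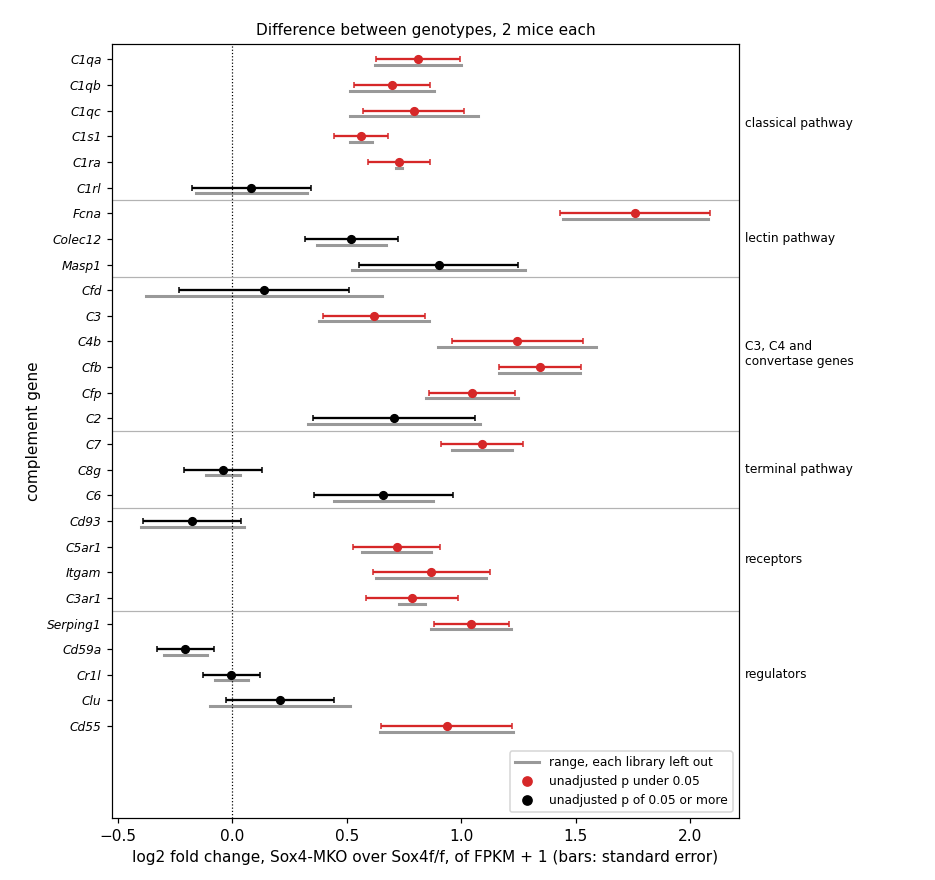
Log2 fold change of FPKM + 1 (Sox4-MKO over Sox4f/f, 2 mice each) for the 27 complement genes, with the standard error of limma as bars and the range with each library left out as grey lines. Red points, unadjusted p under 0.05, all lie above 0, from 0.56 for C1s1 to 1.76 for Fcna, and the grey line of Cfd crosses 0.

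Of the terminal pathway only C7 was called. C7, a pore component made by stromal cells, had 3.35 and 4.22 in Sox4f/f against 8.60 and 9.73 FPKM, a 2.42-fold difference of means. Its log2 fold change was 1.09 (SE 0.18, limma adjusted p = 0.196), with an unadjusted p under 0.05 in all 14 alternatives. Its neighbour C6 was low, at 0.55 and 0.14 against 0.87 and 1.36 FPKM, and the Sox4f/f mice differed 3.78-fold from an estimated 21 and 5 fragments. The log2 fold change was 0.66 (SE 0.30, limma adjusted p = 0.365). C8g, the lipocalin-like chain of C8, was level at 4.67 and 4.11 against 4.44 and 4.04 FPKM. Genes of the other late components, Hc for C5, C8a, C8b and C9, were at or near 0 with at most 0.036 FPKM.

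Of the 6 receptor genes, 4 passed the FPKM limit and 3 of these were called higher under the Sox4-MKO label, beside 7.95% of all tested genes. C3ar1, the receptor of the C3a peptide, had 1.14 and 1.22 against 2.91 and 2.62 FPKM, with a log2 fold change of 0.79 (SE 0.20, limma adjusted p = 0.224). C5ar1, the receptor of C5a, had 3.40 and 3.94 against 7.52 and 5.91 FPKM, with a log2 fold change of 0.72 (0.19, adjusted p = 0.229). Itgam encodes the alpha chain of complement receptor 3 on myeloid cells and had 1.08 and 1.89 against 3.85 and 3.13 FPKM, with a log2 fold change of 0.87 (0.26, adjusted p = 0.244). A second gene model, Gm49368, covers 68.7% of the exonic bases of Itgam on the same strand and was listed at 0 except for 0.28 FPKM in Sox4-MKO mouse 1. None of the 3 receptors overlapped between the genotypes, while 21.7% of all tested genes were higher without overlap. The call of Itgam was lost without Sox4f/f mouse 1 or Sox4-MKO mouse 1, that of C5ar1 without either of these or Sox4f/f mouse 2, and that of C3ar1 without Sox4f/f mouse 1. C5ar2, the second C5a receptor, was under the FPKM limit and overlapped, with 0.42 and 0.49 against 0.48 and 0.99 FPKM. Vsig4, a receptor of resident macrophages, was listed at 0 in both Sox4f/f libraries and at 0.21 and 0.088 FPKM in the others, from an estimated 4 and 2 fragments, and no fold is given. Cd93, a surface protein of endothelial and myeloid cells first described as a C1q receptor, was the most abundant of this group and overlapped, with 18.4 and 25.5 against 17.1 and 21.2 FPKM (log2 fold change -0.17, SE 0.21, limma adjusted p = 0.708).

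Among the regulators, 2 of the 5 genes above the FPKM limit were called higher, Serping1 and Cd55, beside 7.95% of all tested genes. Serping1 encodes C1 inhibitor, which inactivates C1r, C1s and the MASP proteases. It had 32.0 and 41.2 (Sox4f/f) and 72.7 and 79.2 FPKM (Sox4-MKO), a 2.08-fold difference of means. Its log2 fold change was 1.04 (SE 0.16, limma adjusted p = 0.196), and it was called in all 14 alternatives. Cd55, which speeds the decay of convertases, had 4.07 and 6.60 against 13.1 and 9.0 FPKM, with a log2 fold change of 0.94 (SE 0.29, limma adjusted p = 0.253). Its call was lost without Sox4f/f mouse 1 and without Sox4-MKO mouse 1.

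The other surface inhibitors gave no call. Cd59a, which blocks the membrane pore, was the most abundant of them at 60.2 and 68.7 against 56.2 and 55.2 FPKM. It was the only one of the 27 genes with both Sox4-MKO mice below both Sox4f/f mice, with a log2 fold change of -0.20 (SE 0.12, limma adjusted p = 0.464). Cr1l, known as Crry and the main rodent surface inhibitor of C3 cleavage, had 37.1 and 41.1 against 40.1 and 37.9 FPKM. Its log2 fold change was -0.00 with a standard error of only 0.12. Clu encodes clusterin, a chaperone that also binds the pore, and had 22.0 and 19.7 against 30.2 and 19.4 FPKM, with Sox4-MKO mouse 1 alone above the rest. Cd46 was under the FPKM limit at 0.39 to 0.72 FPKM, and Cfi, which encodes factor I, was listed at 0 in all 4 libraries.

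Another 30 complement genes that are not in the module gave mixed directions. Of these, 13 were listed at 0 in all libraries, among them Mbl1, Mbl2, C8a, C8b and C9, and 8 passed the FPKM limit. Vtn, for vitronectin, and Pros1, for protein S, were called higher, with log2 fold changes of 0.52 and 0.55 (limma adjusted p = 0.249 and 0.219). Over all tested genes 7.95% were called higher and 8.28% lower. Cpn2, a subunit of the carboxypeptidase that inactivates C3a and C5a, was called lower. It went from 10.3 and 12.9 FPKM to 5.55 and 4.70 FPKM (log2 fold change -1.03, limma adjusted p = 0.196). The other lower call was C1qbp (log2 fold change -0.45, limma adjusted p = 0.216), whose product is mainly a mitochondrial matrix protein. Cd59b, Itgb2 and Itgax gave no call.

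Most markers of macrophages and of adipocyte progenitors and fibroblasts were also higher under the Sox4-MKO label, while brown adipocyte markers were lower. Of 11 tested macrophage markers, 6 were called higher and none lower, beside 7.95% of all tested genes called higher. The median log2 fold change was 0.72, and 1 was negative, that of Mertk at -0.17. Of the 12 markers on the list, Cx3cr1 was under the FPKM limit, at 0.39 and 0.35 against 0.36 and 0.25 FPKM. Their summed level was 146 and 223 (Sox4f/f) and 294 and 309 FPKM (Sox4-MKO), of which Lyz2 made up more than all others together. Without Lyz2 it was 53.9 and 78.3 against 119 and 112 FPKM. The summed C1q chains were 1.76 and 1.64 times that level in Sox4f/f and 1.70 and 1.59 times in Sox4-MKO, and these ratios overlapped between the genotypes. For Fcna the ratio to the same markers was 0.016 and 0.022 in Sox4f/f and 0.071 and 0.045 in Sox4-MKO, without overlap, and for Cfp it was 0.121 and 0.114 against 0.148 and 0.144. These ratios are descriptions of 2 mice per genotype, and leaving out Lyz2 was chosen after its level was seen.

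Of 8 markers of adipocyte progenitors and fibroblasts, 7 were called higher and none lower, beside 7.95% of all tested genes called higher. The exception was Gsn, and the median log2 fold change of the 8 markers was 1.06. Their sum was 841 and 960 in Sox4f/f against 1306 and 1602 FPKM, or 271 and 312 against 665 and 618 FPKM without Gsn, which made up the larger part in Sox4f/f. Serping1 stood at 0.118 and 0.132 times the sum without Gsn in Sox4f/f and at 0.109 and 0.128 times in Sox4-MKO. The ratios of C7 (0.0123 and 0.0135 against 0.0129 and 0.0158), C4b (0.091 and 0.048 against 0.061 and 0.088) and C3 (0.479 and 0.326 against 0.226 and 0.340) also overlapped. That of Cfb did not, at 0.032 and 0.037 against 0.038 and 0.047, and C1ra and C1s1 together were lower beside these markers, at 0.124 and 0.112 against 0.077 and 0.088. With Gsn included, the ratios of Serping1, C7, C4b and Cfb were all higher in Sox4-MKO without overlap, and that of C1ra and C1s1 overlapped (0.040 and 0.036 against 0.039 and 0.034). The comparison therefore rests on that choice, again made after the levels were seen. Brown adipocyte markers were called lower in 4 of 6 cases, beside 8.28% of all tested genes, and their median log2 fold change was -0.96. Of 5 markers of adipocytes in general 1 was called, Lep, which was higher, beside 7.95% of all tested genes called higher. The median log2 fold change of the 5 was -0.01. Of 6 endothelial markers none was called, and 1 was lower without overlap, against 29.6% of all tested genes. Neutrophil markers summed to 2.97 and 3.42 in Sox4f/f and 5.92 and 11.8 FPKM in Sox4-MKO over 5 genes, with Ly6g listed at 0 throughout. All 3 that passed the FPKM limit were higher without overlap, beside 21.7% of all tested genes. Their median log2 fold change was 0.95, and only S100a9 was called higher, beside 7.95% of all tested genes. Schwann cell markers summed to 20.5 and 4.97 against 33.9 and 25.0 FPKM over 3 genes. Both tested markers were higher without overlap, beside 21.7% of all tested genes, and neither was called. Skeletal muscle markers were called higher without overlap in 4 of 5 cases, with a median log2 fold change of 3.81. What part these cell types and the muscle RNA have in the complement levels was not tested.

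**Figure D3:**
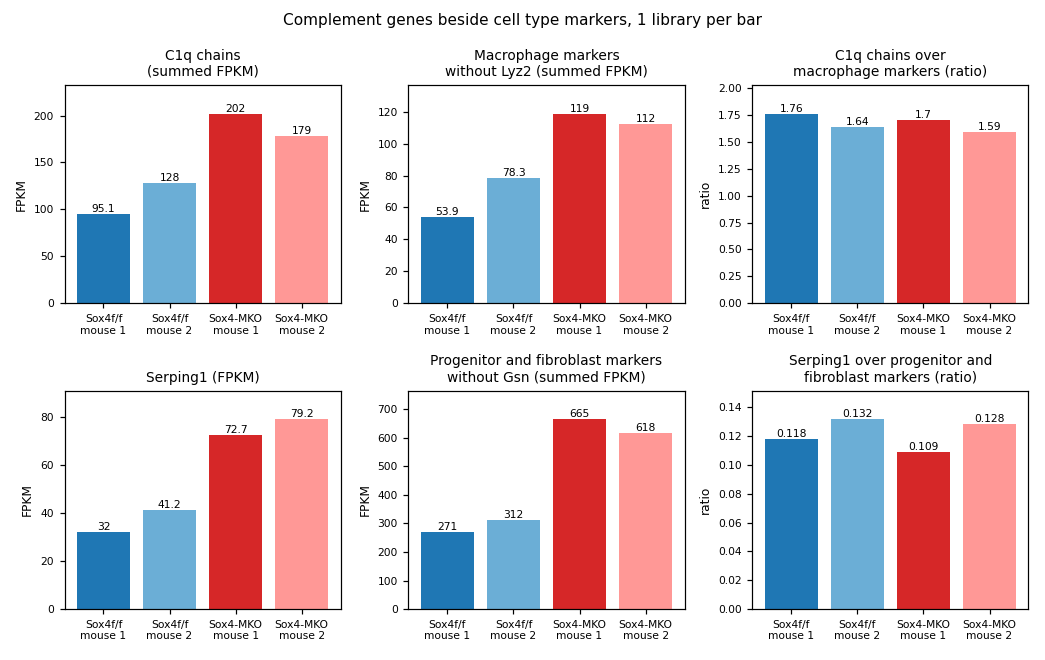
Summed FPKM and ratios in each of the 4 libraries, with 1 bar per library: C1q chains, macrophage markers without Lyz2 and their ratio (top), Serping1, progenitor and fibroblast markers without Gsn and their ratio (bottom). The levels are higher in both Sox4-MKO libraries, while the ratios overlap between the genotypes, from 1.59 to 1.76 (top) and from 0.109 to 0.132 (bottom). With Gsn included, which is not drawn, the Serping1 ratio does not overlap, at 0.038 and 0.043 in Sox4f/f against 0.056 and 0.049 in Sox4-MKO.

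The order of the mice within a genotype differed between genes. At 13 of the 27 genes Sox4f/f mouse 2 was above mouse 1 and Sox4-MKO mouse 1 above mouse 2. That order was held by 29% of the 12718 tested genes with a unique symbol and no tie. The 13 are the 3 C1q chains, Fcna, Cfp, C3ar1, C5ar1, Itgam, Cd55, Cd59a, Masp1, Colec12 and Cr1l. Summed muscle RNA had the same order, at 156 and 585 FPKM in Sox4f/f and 11388 and 1985 FPKM in Sox4-MKO. The opposite order in both genotypes was found at 6 genes, C1ra, C2, C3, C4b, C6 and Cfd, and at 19.9% of tested genes. With 2 mice per genotype this is a description only.

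Promoter sequences were available from RefSeq (GRCm38.p6) for 22 of the 33 genes, in 25 windows, and the 250 bases before the start site are printed for 4 genes that carry the patterns above. C1qb and Itgam are examples of myeloid genes that were higher and hold a GAGGAA match, which not all such genes do. Cfp is a gene that was called higher under all alternatives, and Cfd the abundant gene that did not separate the genotypes. The positions are chr4:136886201-136886450 on the minus strand for C1qb, chr7:128062390-128062639 on the plus strand for Itgam, chrX:20931556-20931805 on the minus strand for Cfp, and chr10:79890603-79890852 on the plus strand for Cfd. Capitals mark GAGGAA, the core letters bound by the myeloid factor PU.1, or AACAAAG, a core bound by SOX factors, on either strand.
C1qb: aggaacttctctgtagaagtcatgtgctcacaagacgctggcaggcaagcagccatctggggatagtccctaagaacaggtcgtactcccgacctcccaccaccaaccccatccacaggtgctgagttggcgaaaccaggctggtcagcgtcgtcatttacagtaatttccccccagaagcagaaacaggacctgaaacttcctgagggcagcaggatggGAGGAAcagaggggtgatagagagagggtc
Itgam: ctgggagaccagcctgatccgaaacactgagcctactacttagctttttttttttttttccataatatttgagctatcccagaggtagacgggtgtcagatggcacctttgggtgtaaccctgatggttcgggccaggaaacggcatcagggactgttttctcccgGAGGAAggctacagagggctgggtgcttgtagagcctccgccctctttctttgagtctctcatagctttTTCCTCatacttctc
Cfp: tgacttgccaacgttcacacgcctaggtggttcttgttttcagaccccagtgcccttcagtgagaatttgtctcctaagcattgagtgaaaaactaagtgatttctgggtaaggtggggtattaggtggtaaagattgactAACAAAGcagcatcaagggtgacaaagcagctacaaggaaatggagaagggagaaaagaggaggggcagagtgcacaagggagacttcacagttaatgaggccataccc
Cfd: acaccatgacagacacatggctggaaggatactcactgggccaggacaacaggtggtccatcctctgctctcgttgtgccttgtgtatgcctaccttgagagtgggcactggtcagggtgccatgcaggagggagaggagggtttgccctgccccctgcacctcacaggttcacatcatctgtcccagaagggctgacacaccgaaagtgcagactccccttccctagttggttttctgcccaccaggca

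GAGGAA was found in 7 of the 25 windows, against 23.3% of all 32851 promoter windows of this length. They belong to C1qb, C1qc, C5ar2, Cd59a, Fcna, Itgam and Vsig4, and C5ar2 holds it in 1 of its 2 windows. Fcna had 3 copies, and Itgam and Vsig4 had 2 each. Of the 7 genes with a match, C1qb, C1qc, Fcna and Itgam were called higher. Cd59a was not called, and C5ar2 and Vsig4 were under the FPKM limit. The windows of C1ra, C1s1, C3, C3ar1, C5ar1, C7, Cd55 and Cfp, all of them called higher, held no GAGGAA. In C1qb the match begins 30 bases before the start site, and in Itgam 84 and 15 bases before it. AACAAAG was found in 1 of the 25 windows, that of Cfp, 109 bases before the start site, and in 5.03% of all windows. The window of Cfd holds neither. These matches describe letters in a window and no binding was measured in these libraries.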

How the data were processed

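RNA sequencing of BAT from 2 Sox4f/f and 2 Sox4-MKO mice was analysed, with groups and mouse numbers taken from the sample titles. The authors deposited 1 FPKM value per gene symbol and library. The submitters' processing notes name Cufflinks 2.1.1, Cuffdiff and the build mm10, while the aligner and the annotation are not given in the sources used here. The values are not counts, so no count test was made. A value of exactly 0 can be a failed estimate and is described as listed at 0. The labels name a stranded mRNA kit and a column extraction, the methods TRIzol and an Illumina TruSeq kit; whether counting used strand is not stated.

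Genes whose mean FPKM exceeded 1 in either genotype were kept, 12877 in all. On their log2(FPKM + 1) values limma 3.58.1 (R 4.3.3) compared the genotypes with no other term, a trended prior and two-sided tests, and p-values were adjusted by Benjamini-Hochberg over the 12877 genes. Log2 fold changes are on the log2(FPKM + 1) scale and understate those of low genes. The code was tested on simulated data. The module, the gene lists and the rule for naming were chosen with earlier results of these data known. By that rule all 33 genes are accounted for, with each library's value above the FPKM limit, and full statistics for genes with an unadjusted p under 0.05, for the most abundant of each role and for those with a difference over 2-fold within a genotype. The 14 alternatives were mouse number as a replicate block, each library left out, 3 other scalings, FPKM limits of 5, 0.1 and none, pseudocounts of 0.1 and 0.01, and no moderation.

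Depth was estimated from low values at 6741 single-transcript genes, as the FPKM × kb at which they cluster, from 8 starting values of which 5 to 8 per library reached the same cluster. Fragments behind a value use the longest transcript and are approximate. Coordinates and overlaps are from GENCODE M21 (GRCm38, the same assembly as mm10) by symbol. Figures were drawn with matplotlib 3.10.9. Same-numbered mice did not deviate together (r = -0.01 across 12877 genes), and nothing in the labels pairs them. One gene among the other complement genes is not reported here.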

Additional observations from a re-analysis of the deposited data

How the results depend on the processing

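Of the 27 complement genes, 16 were called higher and 0 lower at an unadjusted p under 0.05 by limma. The number lower stayed at 0 in every alternative, and no complement gene had an adjusted p under 0.05 in any of them. The number higher was between 10 and 15 with each library left out in turn, where the share of all tested genes called higher ran from 3.36% to 11.2%. It was 15 with mouse number as a replicate block (7.53% of all tested genes), which ended the call of C3 and changed no other, and 7 without moderation (4.29%). It was 15 to 18 of the 27 with other scalings (7.09% to 10.3%) and 17 with either pseudocount (8.29% and 8.36%). The FPKM limits change the genes tested, and the number was 14 of 21 at a limit of 5 (7.67%), 18 of 32 at 0.1 (6.77%) and 19 of 32 with none (5.90%). Without moderation 9 calls were lost, those of C1qa, C1qb, C1qc, C3, C4b, C5ar1, Cd55, Fcna and Itgam, since the fit then has only the spread of the 4 libraries at each gene. C1ra, C1s1, C7, Cfb, Cfp and Serping1 were called in all 14.

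The median log2 fold change of 0.72 was between 0.63 and 0.80 with each library left out, 0.65 with a common median, 0.64 after quantile normalization, 0.78 with a common sum without mitochondrially encoded genes and Ucp1, 0.68 with an FPKM limit of 0.1 and with none, 0.81 with a pseudocount of 0.1 and 0.81 with one of 0.01. Reversed directions were found only at genes without a call. With each library left out, log2 fold changes ran from -0.16 to 0.33 for C1rl, -0.11 to 0.034 for C8g, -0.38 to 0.65 for Cfd, -0.40 to 0.052 for Cd93, -0.10 to 0.51 for Clu and -0.074 to 0.069 for Cr1l. With the common sum C8g was at 0.019 and Cr1l at 0.068, and after quantile normalization Cr1l was at 0.036. The cause was not tested. Depth limits Fcna, C6, Masp1, Masp2, C4a, C5ar2, Vsig4 and Cfi, with fewer than 30 estimated fragments in at least one library.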
